A study of Homo sapiens with 8 samples.

Results

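The genes described here are 10 genes of intestinal epithelial differentiation, CDX1, CDX2, HNF4A, VIL1, CDH17, GPA33, LGALS4, KRT20, CEACAM5 and CEACAM6, taken by name from the 58302 gene identifiers of an RNA-seq count table. RNA-seq was performed in DLD1 cells, an established human colorectal cancer line. The OE-WT cells were stably transduced by lentivirus to overexpress wild-type TRMT6 and TRMT61A, the subunits of the methyltransferase that places N1-methyladenosine on tRNA. The CTRL cells were transduced with the empty vector, so both groups carry a lentiviral vector. The comparison asks how overexpression of the complex changed transcript levels. The table holds 2 libraries per group. The design text of the series speaks of duplicate cultures, and it can also be read as a separate line for each subunit, while the sample labels name both genes together. No source used here says whether a stable line came from a single clone. The labels state that cells were washed with cycloheximide before lysis.

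In the intestine, CDX1 and CDX2 are caudal-type homeobox factors that specify intestinal identity, and HNF4A is a nuclear receptor that maintains enterocyte genes together with them. Their products act on genes of the mature epithelium, whose cells carry an actin-filled brush border, liver-intestine cadherin and keratin 20 near the top of the crypt or villus. CEACAM5, the carcinoembryonic antigen, and CEACAM6 are glycosylphosphatidylinositol-anchored adhesion molecules of the same surface and are used as markers of colorectal cancer.

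The counts on genes summed to between 10327498 and 12379671 per library. TRMT6 reached 210.7 and 180.9 CPM, the count scaled to a common library size by the trimmed mean of M values (TMM), in OE-WT and 52.62 and 55.44 in CTRL. TRMT61A reached 137.5 and 130.4 CPM in OE-WT and 58.92 and 56.82 in CTRL. Both were higher in OE-WT, by a log2 fold change of 1.86 ± 0.08 (SE) and 1.21 ± 0.07, with adjusted p of 8.5e-13 and 1.9e-10 in edgeR's quasi-likelihood test. The 7 epithelial identity markers (EPCAM, CDH1, KRT8, KRT18, KRT19, CLDN4 and CLDN7) were all detected, and their summed level ranged from 12900 to 13360 CPM in OE-WT and from 12140 to 12480 CPM in CTRL. Among them KRT8 and KRT18 were higher in OE-WT and CDH1, KRT19, CLDN4 and CLDN7 were lower. Of the markers of other cell types, the stomach list summed to 0.7051 to 1.38 CPM over the 4 libraries. That list did not hold MUC5AC and TFF1, which were placed in the goblet and mucin list. MUC5AC was at 62.66 and 63.19 CPM in OE-WT and 67.86 and 61.77 CPM in CTRL. TFF1 was at 7.153 and 9.729 CPM in OE-WT and 14.38 and 11.45 CPM in CTRL. The fibroblast list summed to 2.273 to 3.223 CPM, the immune list to 1.769 to 2.643 and the endothelial list to 0.5897 to 2.332. The hepatocyte list summed to between 8.26 and 14.7 CPM, nearly all of it SERPINA1, with ALB at 0 in all 4 libraries. CD3E, CDH5, DCN, GKN1 and GKN2 were also at 0 in all 4 libraries, but other markers of these lists were not. COL1A1 of the fibroblast list had 22 and 18 counts in OE-WT against 19 and 19 in CTRL. CD14 of the immune list had 16 and 14 against 31 and 18, and both were tested and not called. Of these lists of other cell types, SERPINA1 and VWF were called, both lower in OE-WT, with log2 fold changes of -0.54 and -1.65. VWF passed the filter on low counts through CTRL, and DESeq2 gave SERPINA1 an adjusted p of 0.12 and VWF none. Their part in the results on the 10 genes was not tested. In bulk RNA, fewer cells that express a gene and less RNA per cell cannot be told apart.

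KRT20, CEACAM5 and CEACAM6 had the largest log2 fold changes among the 10 genes. The last 2 are neighbours on chromosome 19 with log2 fold changes of opposite sign. That of CEACAM5 rests on 9 and 7 counts in OE-WT against 27 and 24 in CTRL. CEACAM5 passed the filter on low counts through CTRL, and its call was not stable, as given below. The promoter sequences of KRT20, CEACAM5 and CEACAM6 are shown as the bases before the annotated start in RefSeq (GRCh38.p14). They are read 5′ to 3′ on the strand of the gene. KRT20 is on the minus strand at chr17:40885243-40885492 and is shown in full over 250 bases. CEACAM5 at chr19:41708376-41708575 and CEACAM6 at chr19:41755280-41755479 are on the plus strand, and the 200 bases farthest from the start are shown, because an annotated first exon reaches into the rest. Capitals mark TTTAT or its reverse complement ATAAA, the core of the sites that CDX factors are known to bind.
KRT20: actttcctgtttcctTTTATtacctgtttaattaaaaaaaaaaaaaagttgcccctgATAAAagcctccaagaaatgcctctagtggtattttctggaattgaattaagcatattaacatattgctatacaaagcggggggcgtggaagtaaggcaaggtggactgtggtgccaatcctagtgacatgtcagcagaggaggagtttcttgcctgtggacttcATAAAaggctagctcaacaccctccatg
CEACAM5: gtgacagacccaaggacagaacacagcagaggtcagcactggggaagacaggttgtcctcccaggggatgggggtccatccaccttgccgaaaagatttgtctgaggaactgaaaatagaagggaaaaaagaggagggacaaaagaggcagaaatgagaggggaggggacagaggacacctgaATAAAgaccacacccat
CEACAM6: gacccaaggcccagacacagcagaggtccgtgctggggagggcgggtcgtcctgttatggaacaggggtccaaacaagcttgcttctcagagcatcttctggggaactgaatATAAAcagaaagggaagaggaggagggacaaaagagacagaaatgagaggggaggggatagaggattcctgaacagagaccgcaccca

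The windows of 250 bases of CEACAM5 and CEACAM6 aligned over their whole length with 194 identical bases, 46 mismatches and 20 gap columns, an identity of 74.6%. KRT20 aligned with CEACAM5 at 45.7% and with CEACAM6 at 46.7%. The RefSeq table held 8 promoters for 7 of the 10 genes, and CDX1, VIL1 and CDH17 were not in it. TTTAT was found on either strand in the windows of 4 genes, with 3 matches for KRT20, 2 for CDX2 and 1 each for CEACAM5 and CEACAM6. It was present in 32.7% of all 35116 promoter windows of the same length. The longer CDX motif CAATAAA, whose reverse complement TTTATTG contains TTTAT, was found only for CDX2 among the 7 genes, against 3.66% of all windows. The HNF4 motif CAAAGTCCA, searched on both strands, was found for none of them, against 0.325% of all windows. A match or its absence describes these letters in these windows and not the binding of a factor.

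Of the 10 genes, 8 had enough counts to be tested. HNF4A and CEACAM6 were higher in OE-WT and CDH17, KRT20 and CEACAM5 were lower. CDX2, VIL1 and LGALS4 did not pass the test, and CDX1 and GPA33 were too low to be tested. A gene was called at an adjusted p below 0.05 over the 14133 genes tested, a threshold passed by 21.1% of them, with 9.44% higher and 11.6% lower. Of all calls 44.8% were higher in OE-WT, and 23.0% were with scaling by library size only, which moved the median log2 fold change of all genes to -0.08. KRT20, CEACAM5 and CEACAM6 also passed the thresholds of the study, which ask for p below 0.05 without adjustment and a log2 fold change beyond 1 in either direction, as did 3.15% of the genes tested (0.899% higher and 2.25% lower). On the TMM scale the libraries of the groups did not overlap for any of the 8 genes, and they did not overlap for 60.2% of all genes tested (29.9% higher and 30.2% lower). Divided by the library total alone, those of CDX2 and LGALS4 overlapped. The median log2 fold change was 0.01 over all genes tested. CEACAM5 passed the filter on low counts through its CTRL libraries, so these counts describe the genes tested and not the set of 10. With 2 libraries per group, an exact two-sided permutation test cannot give a p below 0.333, so the calls rest on the variance that edgeR shares across genes. The design text does not say how the duplicate cultures were set up, and the p-values measure only the spread between these libraries, which may be technical.

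**Figure D1:**
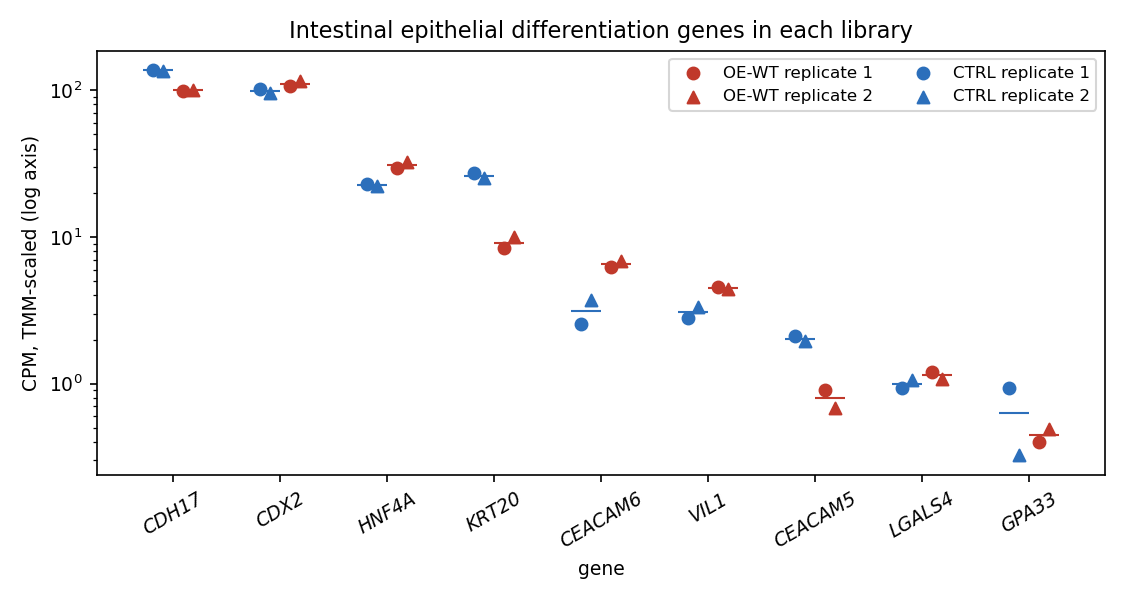
Level of 9 of the 10 genes in each library (vertical axis, TMM-scaled CPM on a log axis), with 1 symbol per library and a bar at the group mean; CDX1, with 1 count in all, cannot be drawn on a log axis and is left out. KRT20 separates into 8.361 and 9.926 CPM in OE-WT and 27.13 and 25.33 CPM in CTRL, while the GPA33 libraries of the groups overlap.

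**Figure D2:**
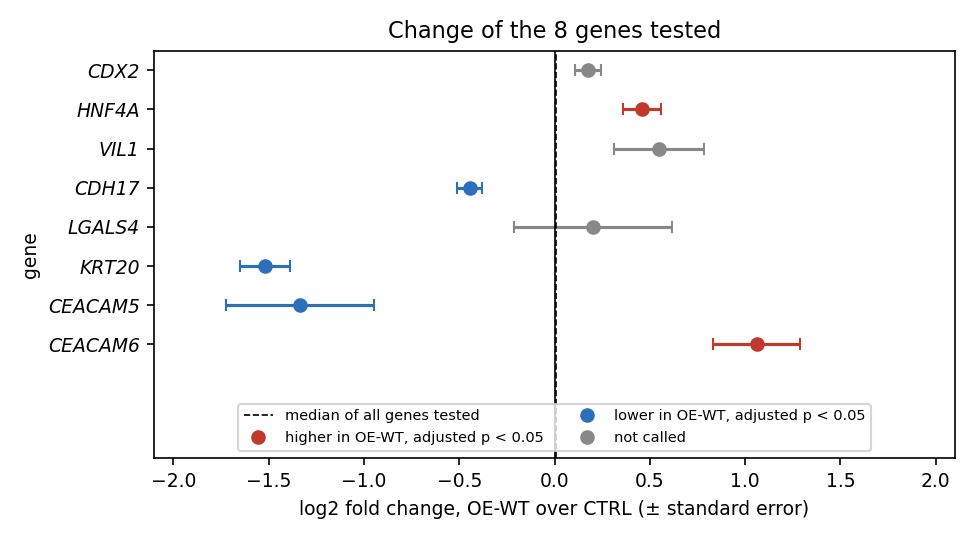
Log2 fold change of the 8 genes tested (horizontal axis, OE-WT over CTRL), with bars for the standard error from edgeR and colour for the call. KRT20 and CEACAM5 lie at -1.52 and -1.33, CEACAM6 lies at 1.06, and the dashed line is the median of all genes tested at 0.01.

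Among the transcription factors, HNF4A was higher in OE-WT, whereas CDX2 was not called and CDX1 was near 0. CDX1 (ENSG00000113722, chr5:150166778-150184558, plus strand) had 1 count in OE-WT replicate 2 and 0 counts in the other 3 libraries. Up to 3 counts are allowed by a count of 0, between 0.233 and 0.302 CPM in these libraries. This limit covers counting error only. Transcripts of CDX1 were thus not detectable at this depth in 3 of 4 libraries.

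CDX2 (ENSG00000165556, chr13:27960918-27969315, minus strand) had 1066 and 1169 counts in OE-WT against 1303 and 1176 in CTRL. After scaling these were 107.4 and 114.9 CPM in OE-WT and 101.3 and 95.46 CPM in CTRL. On this scale both OE-WT libraries were above both CTRL libraries by a small margin, whereas the groups overlapped when divided by the library total alone. The log2 fold change was 0.18 ± 0.07 (SE), with an unadjusted p of 0.02 and an adjusted p of 0.078 in edgeR's quasi-likelihood test, and it was 0.08 with library size only. CDX2, the homeobox factor used in pathology as a marker of intestinal origin, was therefore not called, and none of the alternative settings called it.

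HNF4A (ENSG00000101076, chr20:44355699-44432845, plus strand) had 295 and 328 counts in OE-WT against 296 and 272 in CTRL. These were 29.72 and 32.23 CPM in OE-WT and 23.01 and 22.08 CPM in CTRL. The OE-WT libraries were higher and the groups did not overlap. HNF4A was 1.37-fold higher in OE-WT, a log2 fold change of 0.46 ± 0.10 (SE), with an adjusted p of 0.0024 from edgeR. The raw counts of the groups lay close together, and the difference appears after scaling to library size. GENCODE lists 17 transcripts for HNF4A, from different promoters, and the gene-level counts do not separate them.

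The structural and surface genes did not move together. CDH17 and KRT20 were lower in OE-WT, VIL1 and LGALS4 were not called, and GPA33 was too low to be tested. CDH17 (ENSG00000079112, chr8:94127162-94217303, minus strand), which encodes liver-intestine cadherin, had 984 and 1029 counts in OE-WT against 1767 and 1668 in CTRL. Its level was 99.13 and 101.1 CPM in OE-WT and 137.4 and 135.4 CPM in CTRL. The libraries within a group lay close together and the groups were well apart. CDH17 was 1.36-fold higher in CTRL, a log2 fold change of -0.45 ± 0.07 (SE) for OE-WT over CTRL, with an adjusted p of 5.4e-05 from edgeR.

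KRT20 (ENSG00000171431, chr17:40875889-40885242, minus strand) encodes keratin 20, an intermediate filament protein of differentiated intestinal cells. It had 83 and 101 counts in OE-WT against 349 and 312 in CTRL. On the CPM scale these were 8.361 and 9.926 in OE-WT and 27.13 and 25.33 in CTRL. Both CTRL libraries were above both OE-WT libraries, and KRT20 was 2.86-fold higher in CTRL by the edgeR fit. The log2 fold change was -1.52 ± 0.13 (SE), with an adjusted p of 7e-08 from edgeR. It was the largest change among the 8 genes tested. KRT8 and KRT18, the keratins of simple epithelia, were higher in OE-WT, by 0.25 ± 0.07 and 0.30 ± 0.07 on the log2 scale, with adjusted p of 0.017 and 0.0051, and KRT19 was lower, with a log2 fold change of -0.19 ± 0.07 and an adjusted p of 0.049. KRT8 and KRT18 were not called with library size only (adjusted p = 0.3 and 0.15), nor KRT19 with RLE size factors (0.057) or DESeq2 (0.1). With the replicate number as a block, KRT8 (0.081) and KRT19 (0.14) were not called. KRT8 was also not called without OE-WT replicate 2 or CTRL replicate 2, with log2 fold changes of 0.22 and 0.23. KRT18 was not without OE-WT replicate 2, with 0.26. KRT19 was not without OE-WT replicate 1, CTRL replicate 1 or CTRL replicate 2, with -0.13, -0.21 and -0.16.

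VIL1 (ENSG00000127831, chr2:218419121-218453295, plus strand) encodes villin, which bundles actin in microvilli. It had 45 and 45 counts in OE-WT against 36 and 41 in CTRL, or 4.533 and 4.422 CPM against 2.798 and 3.328 CPM. The OE-WT libraries were higher, but the log2 fold change of 0.55 ± 0.24 (SE) had an adjusted p of 0.11 from edgeR. USP37, a deubiquitinase gene on the opposite strand, overlaps 3045 exonic bases of VIL1, 44.19% of its merged exons. USP37 had 52 and 53 counts in OE-WT against 40 and 47 in CTRL, with a log2 fold change of 0.59 ± 0.23 (SE) and an adjusted p of 0.066. The library kit kept strand per the labels, but the strand setting of the counting is not given in the sources used here. Reads of VIL1 and USP37 in the shared exons therefore cannot be told apart here.

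LGALS4 (ENSG00000171747, chr19:38801671-38812945, minus strand), the gene of galectin-4, a lectin of the intestinal surface, had 12 and 11 counts in OE-WT against 12 and 13 in CTRL. Its level was 1.209 and 1.081 CPM in OE-WT and 0.9328 and 1.055 CPM in CTRL. The groups lay close together, with a log2 fold change of 0.20 ± 0.42 (SE) and an adjusted p of 0.78 from edgeR. A difference of this size was not detectable at this depth. GPA33 (ENSG00000143167, chr1:167052836-167166479, minus strand), which encodes the A33 antigen of the colon surface, had 4 and 5 counts in OE-WT against 12 and 4 in CTRL. Its level was 0.403 and 0.4914 CPM in OE-WT and 0.9328 and 0.3247 CPM in CTRL, so 1 CTRL library was above and the other below both OE-WT libraries.

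CEACAM5 and CEACAM6 had log2 fold changes of opposite sign. CEACAM5 (ENSG00000105388, chr19:41708585-41730433, plus strand) had 9 and 7 counts in OE-WT against 27 and 24 in CTRL. Its level was 0.9067 and 0.6879 CPM in OE-WT and 2.099 and 1.948 CPM in CTRL. Both OE-WT libraries were low, and CEACAM5 was 2.52-fold higher in CTRL by the edgeR fit. The log2 fold change was -1.33 ± 0.39 (SE), with an adjusted p of 0.017 from edgeR. The call was lost without OE-WT replicate 1 (adjusted p = 0.063), without OE-WT replicate 2 (0.13) and without CTRL replicate 1 (0.12), while the log2 fold change stayed between -1.54 and -1.16. DESeq2 gave no adjusted p for this gene.

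CEACAM6 (ENSG00000086548, chr19:41750977-41772211, plus strand) had 62 and 70 counts in OE-WT against 33 and 46 in CTRL. Its level was 6.246 and 6.879 CPM in OE-WT and 2.565 and 3.734 CPM in CTRL. Both OE-WT libraries were above both CTRL libraries, and CEACAM6 was 2.09-fold higher in OE-WT by the edgeR fit. The log2 fold change was 1.06 ± 0.23 (SE), with an adjusted p of 0.002 from edgeR. CEACAM6 kept this call with each library left out in turn, with log2 fold changes between 0.81 and 1.35.

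The ratio of CEACAM6 to CEACAM5 counts was 6.89 and 10.0 in OE-WT and 1.22 and 1.92 in CTRL. CEACAM1, a transmembrane member of the family, had 7 and 5 counts in OE-WT against 33 and 24 in CTRL, with a log2 fold change of -1.90 ± 0.41 (SE) and an adjusted p of 0.0022 from edgeR. Like CEACAM5, CEACAM1 passed the filter on low counts through its CTRL libraries, and DESeq2 gave no adjusted p for it. The summed level of the 3 genes was 7.858 and 8.059 CPM in OE-WT and 7.229 and 7.63 CPM in CTRL. The sums of the groups lay close together, whereas the part of CEACAM6 was larger in both OE-WT libraries. The genes have similar sequences. Of the stretches of 50 bases in CEACAM6 transcripts, 1.38% were found in CEACAM5 transcripts and 1.2% in CEACAM1 transcripts, and no stretch of 100 bases was shared with either gene. ENSG00000267881, a gene model that spans both CEACAM5 and CEACAM6 and shares 139 and 138 exonic bases with them, had 0 counts in all 4 libraries. How counting treated reads common to these genes is not given in the sources used here, and its part in the opposite changes was not tested.

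**Figure D3:**
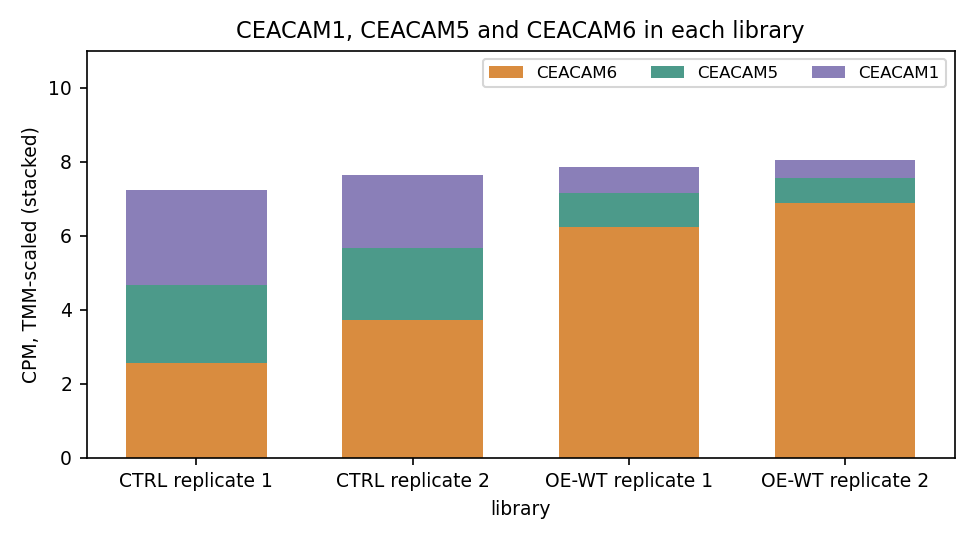
Stacked level of CEACAM6, CEACAM5 and CEACAM1 in each library (vertical axis, TMM-scaled CPM from 0, bars are single libraries). The total is between 7.229 and 8.059 CPM in all 4 libraries, and the CEACAM6 part is 2.565 and 3.734 CPM in CTRL and 6.246 and 6.879 CPM in OE-WT.

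Levels were compared between genes per length, as RPKM, that is, counts divided by the kilobases of merged exons and by the library total, averaged over the 4 libraries with the SD over them. CDH17 and CDX2 were the most abundant, at 30.6 ± 6.54 and 29.7 ± 1.89 RPKM, and their ranges overlapped. Their order differed by group: CDX2 was above CDH17 in both OE-WT libraries (28.98 and 32.18 against 24.26 and 25.69 RPKM) and below it in both CTRL libraries (29.93 and 27.72 against 36.81 and 35.65 RPKM). KRT20 followed at 9.379 ± 5.52 RPKM, HNF4A at 2.617 ± 0.413 and CEACAM6 at 1.622 ± 0.639, and the ranges of HNF4A and CEACAM6 overlapped. VIL1 at 0.543, LGALS4 at 0.4784, CEACAM5 at 0.358 and GPA33 at 0.1839 RPKM followed, each overlapping with its neighbour among these 4, and CDX1 was lowest at 0.01364 RPKM, without overlap. CEACAM5 was below VIL1 and LGALS4 in both OE-WT libraries, at 0.2159 and 0.17 RPKM, and above both in both CTRL libraries, at 0.5472 and 0.4991 RPKM. In CTRL replicate 2 the margin was small, with VIL1 at 0.4932 and LGALS4 at 0.4841 RPKM. In CTRL the order of CEACAM5 and LGALS4 depends on the length used, as LGALS4 has 2226 merged bases and a longest transcript of 1345. Averaged over the 4 libraries, LGALS4 was above CEACAM5 with either length. In OE-WT the order of KRT20 and HNF4A also depends on the length, as HNF4A has 10167 merged bases and a longest transcript of 4739. Over the longest transcript HNF4A was above KRT20 in OE-WT. Averaged over the 4 libraries, KRT20 had 9.946 RPKM and HNF4A 5.614 RPKM over the length of the longest transcript. LGALS4 had 0.7917 RPKM, above VIL1, and CEACAM5 had 0.4076 RPKM, each averaged over the 4 libraries. The 10 genes held between 0.0245 and 0.0268% of all counts in OE-WT and between 0.0295 and 0.031% in CTRL. CDX2 and CDH17 together held between 79.5 and 80.1% of these counts in each library.

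Other genes of the intestinal epithelium were taken from 9 lists, over which 84 list entries were tested. AVIL was entered both in the enteroendocrine and tuft list and in the villin and gelsolin family. Over all 14133 genes tested, 9.44% were called higher in OE-WT and 11.6% lower, and the counts of each list are to be read beside these shares. The intestinal transcription factors had 17 of 24 genes tested, 7 higher and 1 lower in OE-WT, with a median log2 fold change of 0.32. Among the 7, FOXA3 passed the filter on low counts through OE-WT. PROX1, not called, passed it through neither group alone, and the median was 0.30 over the other 15 genes. PDX1, a factor of the duodenum and pancreas, was higher, at 10.58 and 10.22 CPM in OE-WT and 7.151 and 6.332 CPM in CTRL (log2 fold change 0.62 ± 0.17, adjusted p = 0.01). PPARG, a lipid-sensing nuclear receptor, was lower in OE-WT, with a log2 fold change of -0.57 ± 0.13 and an adjusted p of 0.0024. The most abundant of the list, ELF3 and FOXA1, were not called, with log2 fold changes of 0.20 ± 0.08 and 0.09 ± 0.07. PDX1 lost its call without CTRL replicate 2 (adjusted p = 0.065) and with DESeq2 (0.097), and ELF3 gained one without OE-WT replicate 2 (0.021) or CTRL replicate 1 (0.015). DESeq2 called 4 genes of the list in place of 8.

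The brush border list had 14 of 22 genes tested, 5 higher and 2 lower, with a median log2 fold change of 0.18. PLS1, an actin bundler of microvilli, had a log2 fold change of 0.53 ± 0.16, EPS8 of 0.43 ± 0.12, EPS8L3 of 0.42 ± 0.11 and COBL, an actin nucleator, of 0.35 ± 0.09, and these were called higher. EZR, the gene of ezrin, which links actin to the membrane, was lower, at 406.7 and 424.2 CPM in OE-WT and 515.5 and 523.8 CPM in CTRL (adjusted p = 0.00095). EPS8L2, of the EPS8 family, differed little, with a log2 fold change of -0.02 ± 0.06. DESeq2 called 0 genes of this list higher and 1 lower, EZR (adjusted p = 0.00068). PLS1, EPS8 and COBL were not called without OE-WT replicate 1, with log2 fold changes of 0.29, 0.30 and 0.30. They were not called without CTRL replicate 1 either, with 0.39, 0.37 and 0.27.

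The absorptive enterocyte list had 10 of 33 genes tested, 0 higher and 4 lower by edgeR's quasi-likelihood test, with a median log2 fold change of -0.64. None was higher at an unadjusted p below 0.05 or by DESeq2 either. The sodium-glucose transporter gene SLC5A1 and SLC51B passed the filter on low counts through CTRL and SLC9A2 through OE-WT, and the median was -0.56 over the other 7 genes and -0.33 without SLC5A1 and SLC51B. Of its genes, 9 had 0 counts in all 4 libraries, among them SI, a disaccharidase, and FABP1, a fatty acid carrier. With these, 20 genes had at most 3 counts in any library. TSPAN1, a tetraspanin, was at 74.25 and 82.75 CPM in OE-WT and 136.5 and 121.4 CPM in CTRL (log2 fold change -0.72 ± 0.08, adjusted p = 9.4e-07). SCNN1A, a subunit of the epithelial sodium channel, was at 104.5 and 125.4 CPM in OE-WT and 176.5 and 161.8 CPM in CTRL (log2 fold change -0.56 ± 0.08, adjusted p = 3.1e-05). Without OE-WT replicate 2, and also with DESeq2, 2 genes of this list were called.

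The goblet and mucin list had 14 of 30 genes tested, 1 higher and 4 lower, with a median log2 fold change of 0.00. Of its genes, 5 had 0 counts in all 4 libraries, among them ATOH1 and CLCA1. With these, 10 genes had at most 3 counts in any library. MUC2 had 5 and 0 counts in OE-WT against 5 and 4 in CTRL and was not tested. REG4, a secreted lectin of secretory cells, was lower, at 3.224 and 3.145 CPM in OE-WT and 13.29 and 9.822 CPM in CTRL (log2 fold change -1.86 ± 0.21, adjusted p = 2e-06). MUC13, a transmembrane mucin, TFF1, a trefoil peptide, and GALNT12, a glycosyltransferase, were also lower, by log2 fold changes of -0.57 ± 0.11, -0.61 ± 0.17 and -0.46 ± 0.09. TFF1 lost its call without OE-WT replicate 1 (adjusted p = 0.15), without CTRL replicate 1 (0.16) and with DESeq2 (0.091). AGR2, a disulfide isomerase of mucin folding and the most abundant gene of the list, was at 1155 and 1244 CPM in OE-WT and 1155 and 1005 CPM in CTRL and was not called, though it was without CTRL replicate 1 (adjusted p = 0.026). MUC5AC was not called either, with a log2 fold change of -0.04 ± 0.08. In the enteroendocrine and tuft list 3 of 21 genes were tested. Of these, 0 were called by edgeR, by DESeq2 or at an unadjusted p below 0.05. SCG5 had a log2 fold change of 0.12 ± 0.13. AVIL was at -0.74 ± 0.40 and passed the filter on low counts through CTRL.

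The intestinal stem and progenitor list had 12 of 16 genes tested, 5 higher and 1 lower, with a median log2 fold change of 0.19. LGR5, the Wnt-responsive receptor of crypt stem cells, was higher, at 91.77 and 93.66 CPM in OE-WT and 55.03 and 55.6 CPM in CTRL (log2 fold change 0.75 ± 0.07). ASCL2, a transcription factor of the same cells, was at 49.16 and 45.5 CPM in OE-WT and 31.64 and 28.25 CPM in CTRL (log2 fold change 0.66 ± 0.09). CDCA7, NKD1, a Wnt inhibitor, and SOX9, a progenitor factor, were higher by 0.56 ± 0.10, 0.56 ± 0.14 and 0.26 ± 0.06. NKD1 was not called without OE-WT replicate 2 (adjusted p = 0.066) or with DESeq2 (0.066), and SOX9 was not called with library size only (0.14). RNF43, which removes Wnt receptors, was not called, with a log2 fold change of 0.06 ± 0.07.

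Relatives of the surface and actin genes were counted without the 10 genes themselves. Of 10 further CEACAM genes 2 were tested, CEACAM1 as above and CEACAM19, which was not called at a log2 fold change of -0.43 ± 0.29. Of the 12 genes of the galectin list 5 were tested and 3 were lower. The galectins LGALS1 and LGALS3 had log2 fold changes of -0.85 ± 0.10 and -0.36 ± 0.06. LGALS3BP, a galectin ligand and not itself a galectin, had one of -0.60 ± 0.06. All 7 genes of the villin and gelsolin family were tested and 2 were lower, GSN at -0.55 ± 0.08 and CAPG at -0.48 ± 0.16, whereas FLII was not called at -0.04 ± 0.06. Without CTRL replicate 2, 1 gene of this family was called, and CAPG lost its call without OE-WT replicate 1 (adjusted p = 0.41), without CTRL replicate 2 (0.089), with DESeq2 (0.15) and with no filter (0.066).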

How the data were processed

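RNA-seq of OE-WT and CTRL DLD1 cells was analysed. The labels list 8 samples, as 2 lanes for each of 4 libraries, and the deposited table holds 1 column for each library, with 0 columns left unused. Each library counted as 1 replicate, although the methods give 3 biological replicates per group. The methods describe rRNA removal, HISAT2 and HTSeq. The labels describe poly(A) selection with a stranded kit, and the submitters' processing notes name HISAT2 2.2.1, featureCounts 2.0.0 and DESeq2 1.34.0. The authors aligned reads to GRCh38 and deposited raw counts per gene. The annotation release and strand setting are not given in the sources used here.

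GENCODE release 44 matched 57532 identifiers. The counts were tested with edgeR 4.0.16 in R 4.3.3: genes filtered per group (minimum count 10), TMM scaling, the quasi-likelihood test with group as the only term, and Benjamini-Hochberg adjustment over 14133 genes. Each standard error was derived from the log2 fold change and the F statistic. The genes and lists were chosen with earlier results of these data known. Named are the 10 genes, TRMT6, TRMT61A, genes that overlap or resemble them, and, of each list, up to 4 called genes with the largest change, provided that their counts averaged 50 or more and their groups did not overlap, plus the 2 most abundant. Some genes that this rule selects are not reported here. The markers of cell types were named as well. SI, FABP1, SLC5A1, SLC51B, SLC9A2, PROX1, MUC2, ATOH1 and CLCA1 were named after their values were seen. Other settings were scaling by RLE or by library size alone, DESeq2 1.42.0, the likelihood ratio and exact tests, other filters, a replicate block and each library left out in turn. Motifs were searched in the 250 bases before RefSeq starts. The fit was tested on simulated data. Same-numbered libraries share only a number.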

Additional observations from a re-analysis of the deposited data

How the results depend on the processing

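No alternative changed the direction of any of the 8 genes tested, and HNF4A, CDH17, KRT20 and CEACAM6 were called under all 8 other settings and with each of the 4 libraries left out. CEACAM5 lost its call in 3 of 4 fits without a library, and no adjusted p came from DESeq2 or from the filter of 10 counts in every library. CDX2, VIL1 and LGALS4 were called under none of these. With a library left out, the lone library of its group is assumed to vary like the other group.

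The 2976 calls over all genes became 1377 with DESeq2 and between 1903 and 2852 with a library left out, fewest without CTRL replicate 1. The 445 genes past the study's thresholds became 288 with DESeq2, 738 with no filter and 216 where every library had to reach 10 counts. With DESeq2, calls were 4 for the transcription factors, 1 for brush border, which was lower, and 2 for absorptive enterocyte. They were 3 for goblet and mucin, 0 for the CEACAM family and 1 for the villin and gelsolin family. The CEACAM family also had 0 with at least 10 counts in every library, and the villin and gelsolin family 1 with no filter. With a library left out, calls ranged from 2 to 7 in the brush border list, from 2 to 5 in the absorptive enterocyte list and from 1 to 2 in the villin and gelsolin list. With library size only, the share of calls that were higher fell from 44.8% to 23.0% and the median log2 fold change of all genes became -0.08, FOXA1 was at -0.0001, RNF43 at -0.0347, and SOX9 was not called. With a library left out, RNF43 ranged from -0.0053 to 0.1142, SCG5 from -0.0035 to 0.2425 and MUC5AC from -0.1074 to 0.0259, with the sign changed without OE-WT replicate 1, OE-WT replicate 2 and CTRL replicate 1, respectively. Over the length of the longest transcript, HNF4A was at 5.614 RPKM and LGALS4 at 0.7917 RPKM. The causes were not tested. Of 451 values of the other named genes, 420 kept direction and side of the threshold, 23 lost a call, 3 gained one and 5 changed sign. With the replicate number as a block, 2658 genes were called. Deviations of same-numbered libraries correlated at -0.0681, so the numbers are not taken as pairs, and the block changed no call of the 8 genes.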

Other observations

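Genes of the same lists that were called but lie outside the rule for named genes were looked up after their values were seen. Among the transcription factors, FOXA3 was at 2.116 and 2.162 CPM in OE-WT and 0.7773 and 0.9741 CPM in CTRL (log2 fold change 1.28 ± 0.37, adjusted p = 0.016 from edgeR). VDR, the vitamin D receptor, was at 32.64 and 35.58 CPM in OE-WT and 24.33 and 24.19 CPM in CTRL (adjusted p = 0.00098), and KLF5 and FOXA2 were higher with adjusted p of 0.0077 and 0.042. MUC1, a transmembrane mucin, was at 4.03 and 6.486 CPM in OE-WT and 2.876 and 2.76 CPM in CTRL (adjusted p = 0.015), the only gene of the goblet and mucin list called higher. It was not called with DESeq2 (adjusted p = 0.12) or without OE-WT replicate 2 (0.3). In the absorptive enterocyte list, DPP4, a brush border peptidase, and SLC9A3, a sodium-proton exchanger, were lower, with log2 fold changes of -1.05 ± 0.32 and -0.80 ± 0.28. EPHB3, a receptor of the crypt base, was the only gene of the stem and progenitor list called lower, at 36.07 and 37.05 CPM in OE-WT and 46.25 and 49.19 CPM in CTRL (adjusted p = 0.0024). In the brush border list, MYO5B was higher and ESPN lower, with log2 fold changes of 0.29 ± 0.08 and -0.87 ± 0.26. DESeq2 gave FOXA3 and DPP4 no adjusted p, and it did not call KLF5 (0.067), FOXA2 (0.23), SLC9A3 (0.27), MYO5B (0.1) or ESPN (0.18). KLF5 (0.07), FOXA2 (0.079) and MYO5B (0.1) were also not called with library size only. FOXA3 passed the filter on low counts through OE-WT. Of these genes, VDR and EPHB3 kept their calls with each library left out, whereas the others lost theirs without at least 1 library. Adjusted p rose to as much as 0.14 for FOXA3, 0.11 for KLF5, 0.24 for FOXA2, 0.22 for DPP4, 0.31 for SLC9A3, 0.14 for MYO5B and 0.077 for ESPN.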
